A study of Mus musculus with 6 samples.

Results

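Ifit2, Isg15, Usp18 and Xaf1, genes that interferon switches on, did not move together in Bv2 cells after oxygen and glucose deprivation with reperfusion (OGD/R): Ifit2 was higher in OGD/R than in control cells, and Isg15, Usp18 and Xaf1 were lower. These 4 genes were taken by symbol from a table of 1228 genes, and all 4 symbols were found. They were selected on their FPKM values in these same libraries, by the direction of OGD/R against control, so their differences between the groups are a description, with no test. Bv2 is an immortalised mouse microglial line, wild type per the labels, and RNA was sequenced from 3 control samples and 3 OGD/R samples. Per the labels' protocols, OGD/R cells spent 30 min under nitrogen, then 2 h at 1% oxygen without glucose or serum, then 24 h with both restored. The same protocol mentions an infection 72 h earlier without saying to which samples it applies. If only the OGD/R cells had been infected, infection and OGD/R cannot be told apart, which bears on genes that answer interferon. The labels do not tie replicates to separate cultures; a p-value therefore measures only how these samples spread, which may be technical.

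Type I interferon binds a receptor at the cell surface and acts through kinases bound to it and through transcription factors that bind the interferon-stimulated response element in promoters. The genes it switches on include effectors that act against viruses and inhibitors that end the signal. Microglia, the resident macrophages of the brain, express many of them after injury or infection. Isg15 encodes a small ubiquitin-like protein that is attached to other proteins. Usp18 encodes the protease that removes Isg15 from them, and its product also binds the interferon receptor and dampens signalling. Ifit2 encodes an antiviral protein built of tetratricopeptide repeats, and Xaf1 a binding partner of the apoptosis inhibitor Xiap.

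The promoter windows are shown as a description of sequence, which did not enter the choice of the genes. RefSeq promoters on GRCm38.p6, 250 bases before to 50 after a gene's start, were matched for 3 of the 4 genes, all but Usp18. In the sequences below, read 5′ to 3′ on the strand of the gene, capitals mark matches on either strand to GAAA, 2 bases of any kind and GAAA (the core of the interferon-stimulated response element, ISRE), to TTCNNNGAA (the core of the gamma-activated site) or to GAAANGAAA, the same repeat with a single base between its parts. The last was added after the windows had been read. The windows are chr4:156200769-156201068 on the minus strand for Isg15, chr11:72301379-72301678 on the plus strand for Xaf1 and chr19:34550444-34550743 on the plus strand for the first of the 2 listed starts of Ifit2.
Isg15: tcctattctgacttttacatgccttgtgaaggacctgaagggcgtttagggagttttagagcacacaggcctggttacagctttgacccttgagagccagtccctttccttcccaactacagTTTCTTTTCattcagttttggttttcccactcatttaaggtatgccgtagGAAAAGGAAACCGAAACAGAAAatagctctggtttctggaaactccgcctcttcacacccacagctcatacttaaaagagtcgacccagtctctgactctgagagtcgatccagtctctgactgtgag
Xaf1: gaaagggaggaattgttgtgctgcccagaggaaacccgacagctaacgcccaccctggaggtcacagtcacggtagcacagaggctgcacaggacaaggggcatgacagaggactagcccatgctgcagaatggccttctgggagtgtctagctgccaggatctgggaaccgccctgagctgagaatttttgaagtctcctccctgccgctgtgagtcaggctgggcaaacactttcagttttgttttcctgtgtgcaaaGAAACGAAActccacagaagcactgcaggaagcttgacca
Ifit2: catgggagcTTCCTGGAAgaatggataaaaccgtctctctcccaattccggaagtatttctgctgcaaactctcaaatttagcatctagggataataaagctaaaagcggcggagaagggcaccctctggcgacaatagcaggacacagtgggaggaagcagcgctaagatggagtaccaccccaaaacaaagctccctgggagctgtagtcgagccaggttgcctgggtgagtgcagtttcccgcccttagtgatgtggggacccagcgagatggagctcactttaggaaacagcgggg

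Isg15 held 3 overlapping ISRE core matches in a single run, from position -78 to -57 with the start base as 0, and, apart from these, a match to GAAANGAAA from -128 to -120. Xaf1 held no ISRE core and a match to GAAANGAAA just after its start, at positions 10 to 18. Ifit2 held neither in its 2 windows; the first had a match to TTCNNNGAA from -241 to -233, and the second, chr19:34550838-34551137, had none of the 3. The ISRE core was found in 1131 of 32851 promoter windows of the same length (3.44%), GAAANGAAA in 1040 (3.17%) and TTCNNNGAA in 2726 (8.3%). Of 70 interferon-stimulated genes on a list, 53 had a window, and 29 of them (54.7%) held the ISRE core. In this and the following shares of genes, a gene was counted if any of its windows matched. Such shares can therefore run higher than shares of windows. The share was 3.36% among table genes lower in OGD/R (13 of 387 with a window) and 4.13% among those higher (16 of 387). GAAANGAAA was in 22.6% of the listed interferon-stimulated genes, 2.58% of the lower and 3.1% of the higher table genes. TTCNNNGAA was in 13.2%, 4.91% and 9.56% in the same order. GAAA repeats with 0 or 3 bases between them, also added later, were in none of these genes' windows and in 3.66% and 2.75% of all windows. The spacing of 0 was in 1.89% of the listed interferon-stimulated genes, 2.58% of the lower and 5.43% of the higher table genes. For the spacing of 3 these shares were 20.8%, 3.88% and 3.62%. The ISRE core was absent from the windows of Xaf1 and Ifit2, and Usp18 had no window. The part of this string in the direction of the genes was not tested. GAAANGAAA, which was in Xaf1 and not in Ifit2, was added after these windows were read, so it cannot be used to tell the genes apart. A match is a string of letters and not a measured binding site.

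As deposited the values are FPKM, in which counts are divided by gene length and library size. Levels of different genes can be set side by side only for the gene lengths used. By group mean, 605 genes of the table were higher in OGD/R and 623 lower. The log2 ratio closest to 0 was 1.0258 among the former and -0.9709 among the latter, so the genes listed had been filtered on the size of this difference, in a way the sources used here do not describe. The groups did not overlap in 94.9% of the listed genes (48.4% with OGD/R higher and 46.5% with OGD/R lower). All 4 interferon genes were separated in this way too, which the choice of the genes had fixed. Library sizes, worked out from the steps of low FPKM values, were 7628000 to 8247000 counted units in control and 8030000 to 8666000 in OGD/R. Control libraries had 5.07% to 5.63% of these units in the table, and OGD/R libraries 4.03% to 4.11%.

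Ifit2 (ENSMUSG00000045932) was at 3.69, 3.55 and 3.21 FPKM in control replicates 1, 2 and 3, and at 6.72, 8.21 and 6.85 FPKM in OGD/R replicates 1, 2 and 3. The lowest OGD/R library was well above the highest control library, and OGD/R replicate 2 was the highest of all. The group means were 3.48 ± 0.247 and 7.26 ± 0.825 FPKM (SD, n = 3), a ratio of 2.08 and a log2 ratio of 1.06. Ifit2 is near the edge of the table: 31 of the 605 higher genes (5.12%) had a smaller ratio. On GRCm38 it spans 34550694 to 34576419 of chromosome 19, plus strand, with 3927 nt of exons in GENCODE M21.

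Isg15 (ENSMUSG00000035692) was at 17.43, 26.63 and 20.46 FPKM in the control replicates and at 7.91, 10.0 and 7.79 FPKM in the OGD/R replicates. Replicate 2 was the highest library of each group, and the groups did not overlap. The means were 21.5 ± 4.69 and 8.57 ± 1.24 FPKM (SD, n = 3), so control was 2.51 times OGD/R (log2 ratio -1.33), the largest ratio of the 3 lower genes. A smaller one was seen in 260 of the 623 lower genes (41.7%). Isg15 is a short gene of 2 exons, at 156199424 to 156200818 on chromosome 4, minus strand, with 756 nt of exons.

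Usp18 (ENSMUSG00000030107), whose product reverses the attachment of Isg15, was at 20.15, 22.26 and 22.65 FPKM in control and at 10.58, 9.31 and 12.74 FPKM in OGD/R. Control libraries were close to each other and all far above the OGD/R libraries, of which replicate 3 was the highest. The means were 21.7 ± 1.34 and 10.9 ± 1.73 FPKM (SD, n = 3), a control level 1.99 times that of OGD/R (log2 ratio -0.996). Only 24 of the 623 lower genes (3.85%) had a smaller ratio, so Usp18 is also at the edge of what the table holds. It lies on chromosome 6 from 121245906 to 121270917 on the plus strand, with up to 11 exons in a transcript. The lincRNA Gm44148 on the opposite strand shares 124 nt (4.44%) of its exons, and the sources used here do not say if strand was used in counting.

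Xaf1 (ENSMUSG00000040483), the Xiap partner, was at 3.14, 3.83 and 2.91 FPKM in control and at 1.25, 1.39 and 1.97 FPKM in OGD/R. The gap between the groups was narrower than for the other genes in FPKM, with OGD/R replicate 3 nearest to the control libraries. The means were 3.29 ± 0.479 and 1.54 ± 0.382 FPKM (SD, n = 3), or 2.14 times higher in control (log2 ratio -1.10); 126 of 623 lower genes (20.2%) had a smaller ratio. Xaf1 lies on chromosome 11 from 72301629 to 72313733 on the plus strand, with 4689 nt of exons.

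**Figure D1:**
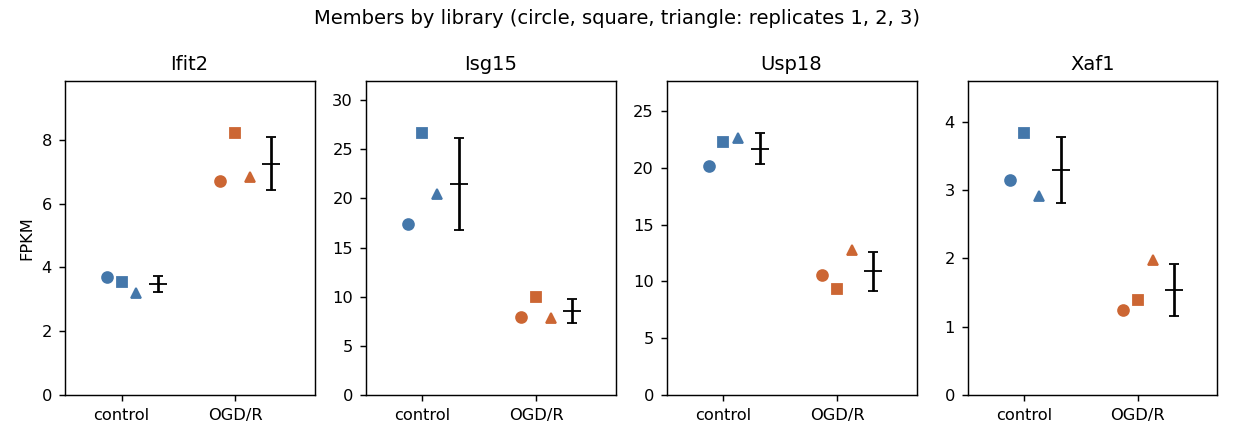
FPKM of Ifit2, Isg15, Usp18 and Xaf1 in each of 3 control (blue) and 3 OGD/R (orange) libraries, each gene on its own axis from 0; the bar gives the mean and SD. Ifit2 was 3.48 in control and 7.26 in OGD/R on average, while the other 3 genes were lower in every OGD/R library than in any control library.

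The order of the mean levels was Usp18, Isg15, Ifit2 and Xaf1 in both groups, but their spacing differed. In control cells Usp18 and Isg15 made a high pair, with overlapping ranges of 20.15 to 22.65 and 17.43 to 26.63 FPKM. Ifit2 and Xaf1 made a low pair, also overlapping, at 3.21 to 3.69 and 2.91 to 3.83 FPKM. In OGD/R cells Usp18 was at 9.31 to 12.74, Isg15 at 7.79 to 10.0 and Ifit2 at 6.72 to 8.21 FPKM, each range overlapping the next. Xaf1 alone remained low, at 1.25 to 1.97 FPKM. In FPKM, Ifit2 was thus level with Xaf1 in control and close to Isg15 in OGD/R, although below Isg15 in each of the 6 libraries. The comparison between genes rests on exon lengths of 3927, 756, 2790 and 4689 nt for Ifit2, Isg15, Usp18 and Xaf1. Their longest transcripts had 3818, 756, 1771 and 2597 nt in the same order. Division by these would raise Usp18 and Xaf1 most, so the order and spacing may hold only for the lengths used.

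Ratios between these genes within a library do not depend on how libraries are scaled. Since the genes were chosen by direction, the ratio of Ifit2 to a lower gene had to be higher in OGD/R, and its values are a description. The ratio of Ifit2 to Isg15 was 0.212, 0.133 and 0.157 in the control replicates and 0.850, 0.821 and 0.879 in the OGD/R replicates. It was 5.08 times higher in OGD/R on average, at 0.850 ± 0.0292 against 0.167 ± 0.0402 (SD, n = 3), and its spread in OGD/R was small although both genes varied. The ratio of Ifit2 to Usp18 was 4.24 times higher in OGD/R (0.685 ± 0.177 against 0.161 ± 0.0208), and that of Ifit2 to Xaf1 4.60 times (4.92 ± 1.28 against 1.07 ± 0.128). Ratios among the 3 lower genes, which were chosen for the same direction, did not separate the groups. Usp18 to Isg15 was 1.16, 0.836 and 1.11 in control and 1.34, 0.931 and 1.64 in OGD/R, so the groups overlapped. Xaf1 to Isg15 overlapped as well, at 0.155 ± 0.0214 in control and 0.183 ± 0.0610 in OGD/R, and so did Xaf1 to Usp18, at 0.152 ± 0.0220 and 0.141 ± 0.0197.

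**Figure D2:**
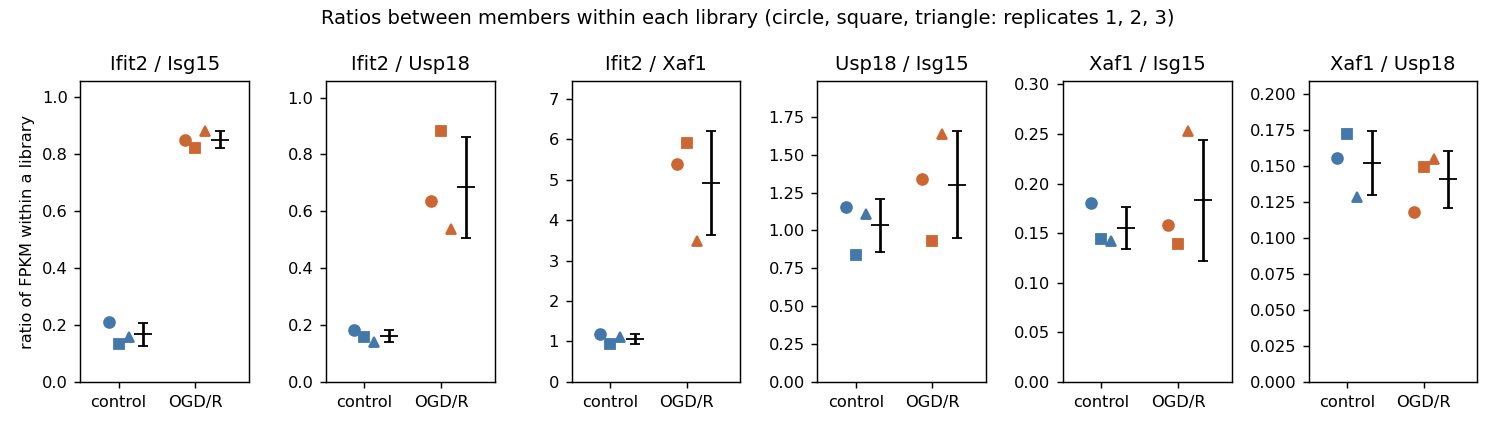
Ratio of the FPKM values of a pair of genes within each library, for the 6 pairs among Ifit2, Isg15, Usp18 and Xaf1, with the mean and SD beside the 3 libraries of each group (control blue, OGD/R orange). The 3 ratios with Ifit2 on top are separated between groups, for example 0.167 against 0.850 over Isg15, which the choice of the genes by direction had fixed. The 3 ratios among the lower genes overlap.

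The libraries of a group did not vary along the same line for each gene. OGD/R replicate 2 was the highest of its group for Ifit2 and Isg15 and the lowest for Usp18, while OGD/R replicate 3 was the highest for Usp18 and Xaf1. Counted units were 96 to 115 in control and 212 to 273 in OGD/R for Ifit2, 101 to 166 and 48 to 64 for Isg15, 431 to 512 and 220 to 308 for Usp18, and 104 to 148 and 47 to 80 for Xaf1. Counting error alone at such numbers gives a coefficient of variation of 8.83% for Isg15 in control, where the libraries varied by 21.8%. For Ifit2 in control the libraries varied by 7.09%, within the 9.65% of counting error. Xaf1 varied most among the OGD/R libraries, by 24.8% against 12.8% from counting. Whether a unit is a read or a pair of reads is not known.

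Length, base composition and stretches shared with annotated transcripts of other genes were compared because they can enter an FPKM value. The longest transcript of Ifit2 had a GC content of 42.0%, lower than that of Xaf1 (47.4%), Usp18 (50.9%) and Isg15 (52.8%). Over protein-coding genes of the table the median was 47.4% for the higher and 53.1% for the lower genes, with median exon lengths of 4821.5 and 3448.5 nt. Ifit2 thus had the lowest GC content of the 4 genes, as the higher genes had the lower median. It did not have the longest exons: Xaf1 had 4689 nt, Ifit2 3927, Usp18 2790 and Isg15 756. The part of GC content or length in their values was not tested. Of the 50-base stretches in its transcripts, Ifit2 shared 0% with transcripts of other genes, Xaf1 1.61%, Usp18 2.81% and Isg15 3.96%.

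The rest of the interferon pathway was read from 5 lists with 169 genes in all, and 14 of these, Ifit2, Isg15, Usp18 and Xaf1 included, were in the table. The other 155 are not analysed here, so the counts do not show how the pathway as a whole behaved. Genes with a mean of at least 1 FPKM were tested with limma on log2(FPKM + 1), a scale that understates the change of low genes. Of 852 genes tested 97.3% passed an adjusted p of 0.05, 46.6% higher and 50.7% lower in OGD/R. All 10 of the other listed genes passed, 4 higher and 6 lower, as nearly all genes of the table did. The table had been filtered on the size of this same difference, so passing was largely fixed in advance. The adjusted p-values here and below are therefore a description and do not give a false discovery rate. Their median log2 fold change was -0.85, against -0.68 over all genes tested. With no gene of the table near 0, each median depends on which direction held slightly more genes and is not a typical change.

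Of 70 interferon-stimulated genes 7 were in the table, and beside the 4 genes above these were Cxcl10, Slfn8 and Tor3a. Cxcl10, a chemokine that attracts activated T cells, was on the side of Ifit2. It was at 1.04, 1.13 and 1.22 FPKM in control and at 1.88, 2.05 and 3.02 FPKM in OGD/R (limma log2 fold change 0.62 ± 0.15 SE, adjusted p = 0.0067, higher in 3 of 3 libraries). Its promoter window held 1 match to the ISRE core, as did that of Slfn8, and Tor3a had no window. The part of this string in their direction was not tested. Tor3a, an ATPase of the torsin family, fell from 11.8 ± 1.60 to 5.88 ± 0.390 FPKM (SD, n = 3), with a limma adjusted p of 0.00061 and a log2 fold change of -0.89 ± 0.13 (SE). Slfn8, of the schlafen family, fell from 3.28 ± 0.488 to 1.44 ± 0.279 FPKM (limma log2 fold change -0.81, adjusted p = 0.0016), and 14.6% of its 50-base stretches occur in other genes, most in Slfn10-ps, so its value is uncertain. The list thus stood at 2 higher and 5 lower with the 4 chosen genes, and 1 higher and 2 lower without them.

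Of 9 genes for the attachment and removal of Isg15 the table held only Isg15 and Usp18 themselves, the modifier and its protease, both lower. Of 25 genes for interferons, their receptors and the JAK-STAT relay it held 0, so neither the interferons nor their receptors and kinases could be set beside the 4 genes. Of 33 genes that interferon gamma induces it held Gbp8 and Nos2, and both fell. Gbp8, a guanylate-binding GTPase, fell from 4.75 ± 1.41 to 1.41 ± 0.554 FPKM (SD, n = 3), with a limma adjusted p of 0.0026 and a log2 fold change of -1.25 ± 0.24 (SE), and with 18.1% of its 50-base stretches in other genes. Nos2, the inducible nitric oxide synthase, fell from 1.97 ± 0.516 to 0.547 ± 0.323 FPKM (limma log2 fold change -0.95, adjusted p = 0.0043).

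Among 39 genes for sensing nucleic acids and for the interferon regulatory factors, 5 were in the table, 3 higher and 2 lower. Tlr8 and Tlr13, endosomal receptors for RNA, and Irak3, which restrains signalling from such receptors, rose (limma adjusted p = 0.0018, 0.00050 and 0.0019). Tlr13 and Irak3 were at 2.05 and 2.85 times their control means. Tlr8 was near the floor in control, at 0.25, 0.27 and 0.04 FPKM, and at 2.12, 2.34 and 1.0 FPKM in OGD/R, so the size of its rise is uncertain: pseudocounts of 1, 0.1 and 0.01 gave log2 fold changes of 1.22, 2.79 and 3.48. Ticam1, the adaptor also called Trif, which leads to interferon production, fell from 13.8 ± 1.10 to 5.91 ± 0.287 FPKM (SD, n = 3), with a limma adjusted p of 0.00015 and a log2 fold change of -1.10 ± 0.10 (SE). Ticam2, which bridges Toll-like receptor 4 to Ticam1, fell from 5.57 ± 0.671 to 1.75 ± 0.195 FPKM (limma adjusted p = 0.00016).

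**Figure D3:**
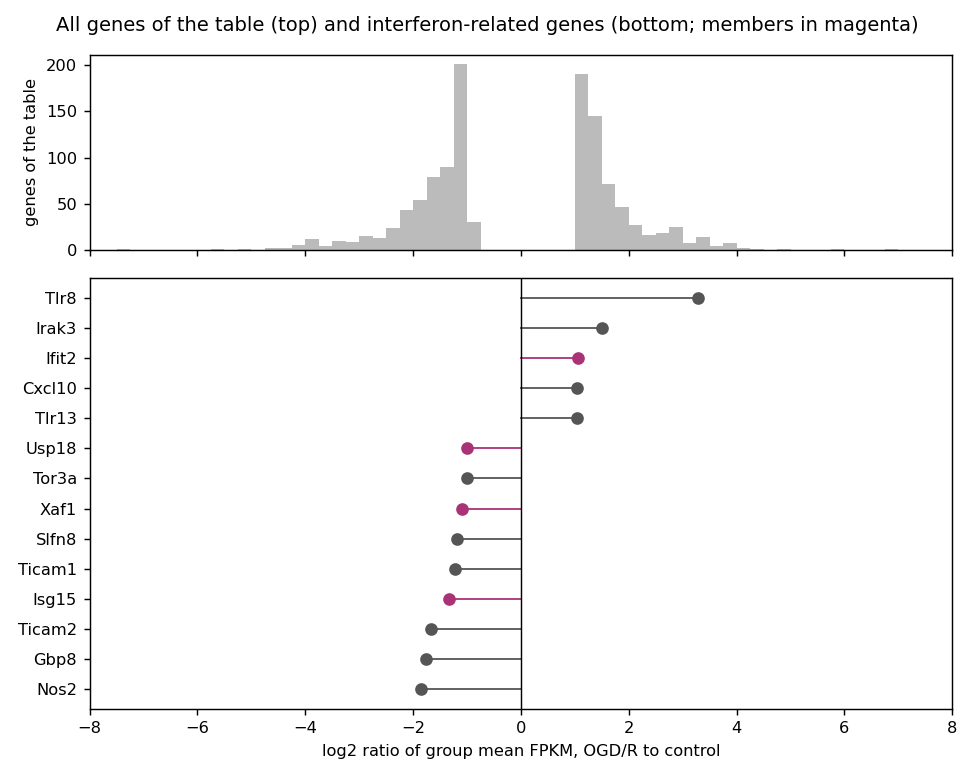
Top, histogram of the log2 ratio of group mean FPKM, OGD/R to control, over the genes of the table, leaving out 21 genes with all control values and 23 with all OGD/R values listed at 0; bottom, the same ratio for the 14 interferon-related genes, with Ifit2, Isg15, Usp18 and Xaf1 in magenta. The table has no gene near 0, Ifit2 at 1.06 and Usp18 at -0.996 lie at its inner edges, and 5 of the 14 genes are higher and 9 lower.

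The genes of the table most like these 4 over the 6 libraries were then sought. Likeness was measured as the root mean square difference between log2(FPKM + 1) profiles after each gene's mean was taken off, among 631 genes with a symbol. The genes nearest to Ifit2 were P2ry6, Txndc16 and Frmd4b, at differences of 0.0409, 0.0555 and 0.0610, where the median gene was at 0.764. The scale shrinks the change of low genes, so near genes can differ in fold: P2ry6 and Frmd4b, both lower in level, were 3.17 and 2.77 times higher in OGD/R, against 2.08 times for Ifit2. For Isg15 they were Ticam2, Slc35b1 and March9, at 0.123, 0.124 and 0.128, farther off than for the other 3 genes, and March9, also low, was 4.61 times higher in control against 2.51 times for Isg15. For Usp18 they were Slc27a1, Rchy1 and Tarm1 (0.0584, 0.0656 and 0.0695), and for Xaf1 they were Ring1, Napb and Endov (0.0660, 0.0765 and 0.0774). Slc27a1, a fatty acid transport protein, went from 85.7 ± 6.74 to 43.5 ± 3.73 FPKM (SD, n = 3) beside the fall of Usp18 in FPKM. The 3 lower genes were not each other's nearest neighbours: Usp18 and Xaf1 differed by 0.152, with 64 genes nearer to Usp18 than Xaf1 was, and Isg15 and Usp18 by 0.293, with 155 genes nearer to Isg15.

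**Figure D4:**
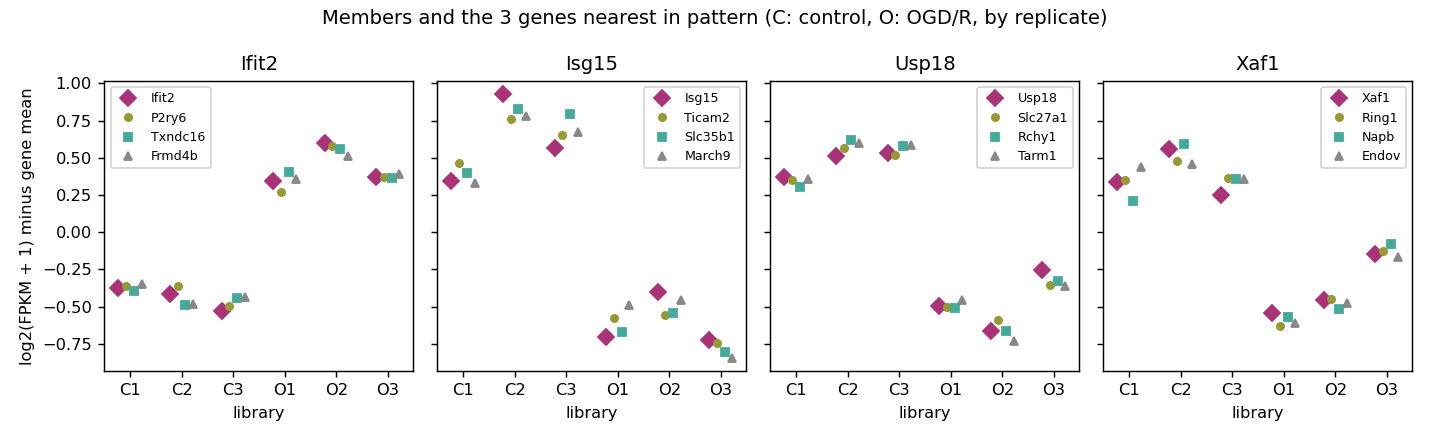
log2(FPKM + 1) minus the gene's mean in each control (C) and OGD/R (O) library by replicate number, for Ifit2, Isg15, Usp18 and Xaf1 (magenta diamonds) and the 3 genes nearest to each. On this scale, which shrinks the change of low genes, the nearest genes of Ifit2 are 0.0409 to 0.0610 from it (root mean square), and those of Isg15 are farther off, at 0.123 to 0.128.

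Markers of cell types were checked as far as the table holds them. Of 14 markers of microglia and macrophages, Cx3cr1 and P2ry12 were in the table, both low in control and higher in OGD/R, with a summed level of 0.79 to 1.08 FPKM in control and 2.81 to 3.17 in OGD/R libraries. Of other cell types, 1 of 6 neuronal markers was present (Tubb3, 0.56 to 1.17 FPKM in control and 0 to 0.37 in OGD/R). So were 1 of 6 markers of the oligodendrocyte lineage (Cspg4, at most 0.09 FPKM in any library) and 1 of 8 of fibroblasts and endothelium (Vwf, 3.22 to 4.40 FPKM in control and 1.10 to 1.74 in OGD/R). None of 5 astrocyte and 9 lymphocyte and granulocyte markers was in the table, and the other markers are not analysed here. Vwf and Tubb3 were lower in OGD/R as Isg15, Usp18 and Xaf1 were, and their part in the result was not tested. In a bulk sample, fewer cells that express a gene and less RNA per cell cannot be told apart.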

How the data were processed

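RNA sequencing of 6 Bv2 libraries (3 control, 3 OGD/R; paired reads of 150 nt per the labels) gave FPKM values that the authors deposited as 1 table, printed to 2 decimals. Per the submitters' processing notes the genome build was GRCm38; the sources used here name no aligner, counting tool or annotation. The genes studied and the lists were chosen with earlier results of these data known. Gene IDs were matched to GENCODE M21 (1227 of 1228), and 2 symbols turned into dates were restored. Genes with a mean of at least 1 FPKM were log2-transformed after adding 1 and fitted by limma 3.58.1 (R 4.3.3) with a group term and a trended eBayes; two-sided p-values were adjusted by Benjamini-Hochberg over 852 genes, after a test on simulated data. Named genes were the 4 chosen genes, every other gene of the 5 lists in the table, and the 3 genes nearest in pattern to each (symbols of the Gm, Rik and -ps kinds and clone names left out). Library sizes in counted units were the sizes at which values under 15 units became whole (within rounding plus 0.03 units), given exon lengths, which held for 97.2% to 100% of them against 18.8% to 20.1% by chance. Alternatives covered the pseudocount, the filter, 2 scalings, the eBayes trend, a replicate block, voom on the units and each library left out. Python 3.11.15, pandas 2.3.3, numpy 2.4.6 and matplotlib 3.10.9 did the rest.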

Additional observations from a re-analysis of the deposited data

How the results depend on the processing

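Ifit2 remained higher and Isg15, Usp18 and Xaf1 lower in OGD/R under each setting run, which their choice by direction in these libraries had largely fixed. On the difference of log2(FPKM + 1) the values of Ifit2 and Xaf1 were 0.88 and -0.76, against 1.06 and -1.10 as log2 ratios, since the pseudocount shrinks low levels. Scaling libraries to the same sum over the table moved each gene by about 0.44 on the log2 scale and gave 1.48, -0.88, -0.56 and -0.66 for Ifit2, Isg15, Usp18 and Xaf1; once that shift is taken off they are close to the values as deposited. Leaving out any 1 replicate gave 0.96 to 1.11, -1.46 to -1.15, -1.12 to -0.90 and -1.32 to -0.97 in that order, 789 to 829 genes changed in all, and 10 to 10 listed genes outside the 4 chosen ones. With those it was 14 to 14, a count that their choice on these values fixed in part and that says nothing about stability. With a mean of at least 5 FPKM the genes changed were 409 of 423 tested, and the other listed genes 3, or 6 with the chosen ones, because fewer were tested. The labels do not say whether equal replicate numbers pair the libraries. The deviations from group means of libraries 1, 2 and 3 correlated between the groups at 0.428, -0.349 and 0.375. Libraries of unlike number correlated at -0.628 to 0.479, so these values cannot settle the pairing. With a replicate block 835 genes changed, and the other listed genes stood at 10 (14 with the chosen ones, with the same limit). The mean log2 ratios of libraries with equal numbers were 1.06, -1.32, -1.01 and -1.12 for the 4 genes. Such a mean is the same for any pairing of the libraries, so it does not test the block. For the 10 other listed genes all 133 fits under other settings kept the direction and the call. The table holds only genes filtered on the size of this difference, which largely fixed that outcome, so it does not show stability either. Xaf1, at 47 to 80 units per OGD/R library, and Isg15, at 48 to 64, are limited by depth.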

Other observations

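A few genes tied to interferon or its family members stood in the table outside the lists, and were named after their values were seen. Slfn9, a schlafen gene, rose from 3.92 ± 0.397 to 9.65 ± 1.38 FPKM (SD, n = 3), with a limma adjusted p of 0.00034 and a log2 fold change of 1.11 ± 0.13 (SE), where the related Slfn8 fell. Of the 50-base stretches of Slfn9, 11.9% occur in transcripts of other genes, so its value is uncertain as well. Casp4, the inflammatory caspase that senses lipopolysaccharide, fell from 7.35 ± 1.34 to 2.98 ± 0.495 FPKM (limma log2 fold change -1.06, adjusted p = 0.00082). Ifi206, of the family that includes the DNA sensor Aim2, was at 0.64, 0.68 and 0.60 FPKM in control and at 0.12, 0.12 and 0.19 FPKM in OGD/R, below the level tested.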
